A study of Homo sapiens with 12 samples.

Results

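Transforming growth factor beta (TGF-beta) signalling was described here through 9 genes, TGFB1, TGFB2, TGFBR1, TGFBR2, SMAD2, SMAD3, SMAD4, SMAD7 and CTGF, which were chosen by symbol as the ligands, receptors, SMADs and a direct target of the pathway, out of 25365 gene names in the RNA-seq table. All 9 had a mean of at least 1 FPKM (a transcript level divided by the length of the transcript and the mapped reads of the library) and were among the 11881 genes tested. The cells were A549, a human lung adenocarcinoma line. Wild-type cells and PARP3-/- cells, in which the gene for the DNA repair enzyme PARP3 had been targeted with a pair of Cas9 guides and lines cloned by dilution, were each given DMSO vehicle or 1 µM pyridostatin, a ligand that stabilises G-quadruplex (G4) DNA, for 24 h. Each of the 4 groups had 3 libraries, which the study's methods call biological replicates, and how many independent clones the PARP3-/- libraries represent is not given in the sources used here.

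TGF-beta ligands are secreted in a latent form, and once released they bind a type II receptor kinase, which activates a type I receptor kinase. The type I receptor phosphorylates SMAD2 and SMAD3, which join SMAD4 and enter the nucleus to regulate target genes. SMAD7 is itself induced by the pathway and blocks the type I receptor, and CTGF, a secreted matricellular protein, is a classical target that also responds to the YAP/TAZ coactivators of TEAD factors. In lung carcinoma cells such as A549, TGF-beta is widely used to drive an epithelial-to-mesenchymal transition.

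The targeted gene did not separate the genotypes in the direction of its label. PARP3 transcript measured 3.83, 3.40 and 3.96 FPKM in wild type with vehicle and 4.92, 4.07 and 4.25 FPKM in the libraries labelled PARP3-/- (log2 fold change 0.19, SE 0.0716, limma adjusted p = 0.136), and with pyridostatin the labelled PARP3-/- mean was 4.58 ± 0.245 FPKM against 3.79 ± 0.243 FPKM (SD, n = 3). The study examined the deletion, in the first exon, by Sanger sequencing and the cells by immunoblot, which were not used here. A gene-level value need not fall after a short deletion, so this checks neither genotype nor label, and every genotype difference below is between libraries by their labels. Keratins placed the cells as epithelial, with KRT7 between 1504 and 1831 FPKM in every library. The leukocyte markers PTPRC and CD3E and the fibroblast marker DCN had group means of at most 0.0126 FPKM. The summed level of 4 leukocyte markers, nearly all from CD14, ran from 3.35 to 4.42 FPKM in wild type with vehicle, 4.89 to 6.26 FPKM in labelled PARP3-/- with vehicle, 2.81 to 3.32 FPKM in wild type with pyridostatin and 4.36 to 4.89 FPKM in labelled PARP3-/- with pyridostatin. The summed level of 5 fibroblast markers ran from 0.687 to 0.978, 1.56 to 1.83, 0.840 to 1.08 and 1.68 to 2.06 FPKM in the same order, mostly from COL1A1. The summed level of 3 endothelial markers ran from 0.181 to 0.213, 0.245 to 0.337, 0.116 to 0.174 and 0.298 to 0.375 FPKM, nearly all from CDH5, with PECAM1 and VWF near 0. All 3 sums were higher in every labelled PARP3-/- library than in the wild-type libraries of the same treatment, and their part in the results below was not tested. Wild-type vehicle library 2 stood somewhat apart, with the highest summed FPKM, the lowest median level and the largest deviation from its group (SD 0.334 against 0.264 to 0.301 on the log2 scale), and calls of the 9 genes that change without it are given with and without it. Over all genes, 1644, 2298, 706 and 1559 were called without it, in place of 1118, 1297, 495 and 661, for genotype with vehicle, genotype with pyridostatin, and pyridostatin in wild type and in labelled PARP3-/-.

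The 5 comparisons were placed in a single limma model of log2(FPKM + 1), and a call needed a Benjamini-Hochberg adjusted p under 0.05 across the whole table of tested genes. With vehicle, 3 of the 9 genes were higher in labelled PARP3-/- libraries (SMAD3, SMAD7 and CTGF) and none lower, while 9.41% of all genes tested were called in either direction. With pyridostatin, 5 of 9 were higher (TGFB1, TGFB2, SMAD3, SMAD7 and CTGF) and none lower, against 10.9% of all genes. SMAD2 was lower in both at an unadjusted p under 0.05 (0.0322 and 0.00711). Pyridostatin in wild type changed 0 of 9 by limma, against 4.17% of all genes. There 2 of 9 had an unadjusted p under 0.05, as did 20.28% of all genes. In labelled PARP3-/- cells pyridostatin raised 2 of 9 (SMAD3 and CTGF), against 5.56% of all genes. The genotypes did not overlap for 4 of 9 genes with vehicle and 8 of 9 with pyridostatin, as was so for 24.2% and 35.2% of all genes tested. None of the 9 also passed an absolute log2 fold change of 1, a criterion met by 0.362%, 0.396%, 0.0505% and 0.0673% of all genes in these comparisons. The median log2 fold change of the 9 genes was 0.15 and 0.28 for the genotype difference with vehicle and pyridostatin and 0.02 and 0.10 for pyridostatin in wild type and labelled PARP3-/-, where the medians over all genes tested lay between 0.002 and 0.015. In bulk RNA, a change in the share of cells that express a gene and a change in RNA per cell cannot be told apart. The comparisons share libraries in pairs (the genotype comparison with vehicle and the pyridostatin comparison in wild type both use the wild-type vehicle libraries, for example), so a count in one is not independent of a count in another.

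**Figure D1:**
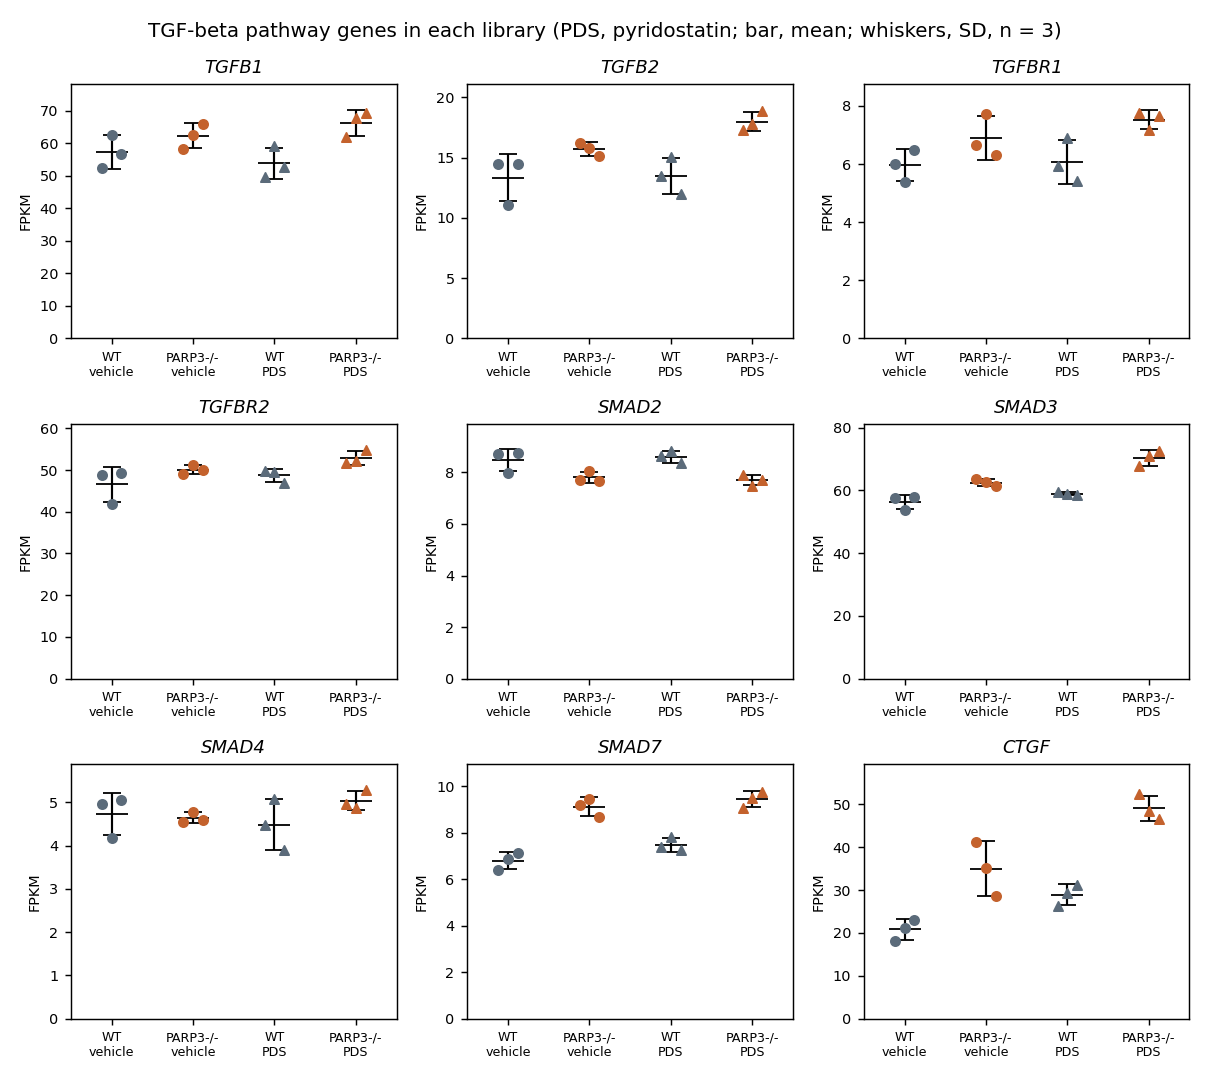
FPKM (y axis, from 0) of the 9 TGF-beta pathway genes in each library of the 4 groups (x axis; PDS, pyridostatin; grey, wild type; orange, labelled PARP3-/-; circles, vehicle; triangles, pyridostatin); horizontal bars are means and whiskers are SD (n = 3). For SMAD3, SMAD7 and CTGF every labelled PARP3-/- point lies above every wild-type point of the same treatment, and for SMAD4 the genotypes overlap with either treatment.

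Promoter windows, taken from RefSeq on GRCh38.p14, were matched for all 9 genes (CTGF under its current symbol CCN2) and run from 250 bases before to 50 bases after the most upstream annotated start of each gene. TGFBR1, SMAD3, SMAD7, TGFBR2 and SMAD2 have 8, 5, 3, 2 and 2 annotated windows, of which only the most upstream is described here. The 3 windows printed here belong to the genes that were called between genotypes with either treatment. For CTGF (chr6:131951323-131951622, minus strand) and SMAD7 (chr18:48950916-48951215, minus strand), capitals mark GGAATG, letters of the TEAD motif, and CAGAC, letters of the SMAD-binding element, on either strand. For SMAD3 (chr15:67065352-67065651, plus strand), capitals mark runs that match a G4 consensus of 4 runs of at least 3 G separated by loops of 1 to 7 bases.
CTGF: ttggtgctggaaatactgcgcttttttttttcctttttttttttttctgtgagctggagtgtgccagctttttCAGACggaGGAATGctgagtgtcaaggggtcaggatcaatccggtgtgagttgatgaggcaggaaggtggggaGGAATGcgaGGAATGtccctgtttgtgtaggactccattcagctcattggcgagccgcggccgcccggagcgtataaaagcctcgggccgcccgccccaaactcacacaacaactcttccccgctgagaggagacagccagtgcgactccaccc
SMAD7: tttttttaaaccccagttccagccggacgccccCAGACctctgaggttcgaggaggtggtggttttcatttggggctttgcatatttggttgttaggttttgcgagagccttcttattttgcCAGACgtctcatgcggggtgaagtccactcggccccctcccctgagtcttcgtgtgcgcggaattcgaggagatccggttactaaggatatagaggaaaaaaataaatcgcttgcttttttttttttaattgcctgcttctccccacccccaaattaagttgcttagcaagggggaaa
SMAD3: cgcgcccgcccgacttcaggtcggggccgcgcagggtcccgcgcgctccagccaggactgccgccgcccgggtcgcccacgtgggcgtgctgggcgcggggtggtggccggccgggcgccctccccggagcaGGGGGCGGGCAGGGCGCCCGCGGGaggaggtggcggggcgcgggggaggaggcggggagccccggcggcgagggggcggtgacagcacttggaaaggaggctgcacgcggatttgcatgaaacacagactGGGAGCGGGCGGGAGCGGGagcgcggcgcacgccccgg
The CTGF window holds GGAATG 3 times and CAGAC 1 time, and the motifs do not overlap each other. At least 3 copies of GGAATG on either strand occurred in 0.128% of 35116 annotated windows of this length, several of which can belong to the same gene, and at least 1 copy in 14.0%. SMAD7 holds no GGAATG and 2 copies of CAGAC, of which at least 1 occurred in 45.3% and at least 2 in 13.1% of all windows. TGFB2 holds both (GGAATG 1 time, CAGAC 2 times), SMAD3 holds CAGAC 1 time, and the windows of TGFB1, TGFBR1, TGFBR2, SMAD2 and SMAD4 hold neither. The G4 consensus was matched on either strand in 3 of the 9 windows (TGFB1, SMAD2 and SMAD3) and in 25.0% of all windows. These are matches of letters and no binding or G4 structure was measured.

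The ligands were higher in labelled PARP3-/- libraries with pyridostatin. TGFB1, which encodes the main ligand, measured 49.8, 59.0 and 52.8 FPKM in wild type and 61.9, 67.7 and 69.3 FPKM in labelled PARP3-/- libraries with pyridostatin. The groups did not overlap, and the difference was 23.1% of the wild-type mean (log2 fold change 0.30, SE 0.0801, limma adjusted p = 0.0391). With vehicle the same gene measured 52.4, 62.6 and 56.8 FPKM against 58.4, 62.6 and 66.0 FPKM. These ranges overlapped (log2 fold change 0.12, SE 0.0801, limma adjusted p = 0.434). TGFB1 passed in 12 of the 20 alternative fits of the pyridostatin comparison, and its adjusted p ranged from 0.00624 to 0.151 over them.

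TGFB2, a second ligand, was several-fold less abundant than TGFB1 per unit of transcript length. With pyridostatin it measured 13.4, 15.0 and 12.01 FPKM in wild type and 17.3, 17.8 and 18.8 FPKM in labelled PARP3-/- libraries. Every labelled PARP3-/- value lay above every wild-type value (log2 fold change 0.39, SE 0.0975, limma adjusted p = 0.0259). With vehicle the values were 14.5, 11.1 and 14.4 FPKM against 16.2, 15.8 and 15.1 FPKM. Here too the groups were apart, with wild-type library 2 well below the others, but the difference missed the threshold (log2 fold change 0.23, SE 0.0975, limma adjusted p = 0.202). The TGFB2 call with pyridostatin held in 14 of 20 alternatives (adjusted p 0.00322 to 0.109). Both ligand calls were lost when wild-type pyridostatin library 1 or 3 or labelled PARP3-/- pyridostatin library 2 or 3 was left out, which brought the count from 5 to 3 each time. TGFB3, the remaining isoform, was below the level filter in all groups, with group means of 0.440 to 0.489 FPKM.

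Neither receptor passed the test in any comparison with all 12 libraries, and both passed between genotypes with pyridostatin when wild-type vehicle library 2 was left out (limma adjusted p = 0.0486 for TGFBR1 and 0.0394 for TGFBR2). TGFBR1 also passed without wild-type pyridostatin library 2 (adjusted p = 0.0323). TGFBR1, the type I receptor kinase, measured 5.92, 6.88 and 5.42 FPKM in wild type and 7.76, 7.17 and 7.66 FPKM in labelled PARP3-/- libraries with pyridostatin. The groups were apart (log2 fold change 0.28, SE 0.0895), yet the limma adjusted p was 0.0794. With vehicle the values were 5.996, 5.39 and 6.50 FPKM against 6.64, 7.73 and 6.31 FPKM, with overlap (log2 fold change 0.18, limma adjusted p = 0.284). TGFBR2, the type II receptor kinase that binds the ligand first, ranged from 41.8 to 54.9 FPKM over all 12 libraries. Its group means were 46.6, 50.1, 48.8 and 52.9 FPKM in wild type and labelled PARP3-/- with vehicle and in the same pair with pyridostatin. The genotype difference was 0.11 on the log2 scale with either treatment (SE 0.0585, limma adjusted p = 0.344 and 0.274). TGFBR2 was 7.03 to 8.10 times TGFBR1 in FPKM as a group mean of the within-library ratio, and those ratios overlapped between genotypes with either treatment. TGFBR3, a coreceptor that presents ligand, did not pass in any comparison and had group means of 2.95 to 3.63 FPKM.

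Of the receptor-activated SMADs, SMAD3 was called between genotypes and SMAD2 was not. SMAD3 measured 57.5, 53.8 and 57.8 FPKM in wild type and 63.6, 62.7 and 61.3 FPKM in labelled PARP3-/- libraries with vehicle. Every labelled PARP3-/- value was higher, though the whole difference was 10.9% of the wild-type mean (log2 fold change 0.15, SE 0.0384, limma adjusted p = 0.0355). With pyridostatin the values were 59.7, 58.9 and 58.5 FPKM against 67.7, 71.0 and 72.6 FPKM, a gap wider than the range of either group (log2 fold change 0.25, SE 0.0384, limma adjusted p = 0.00177). The pyridostatin call held in all 20 alternatives and the vehicle call in 9 of 20 (adjusted p 0.0289 to 0.138). Setting all libraries to a common median or to common quantiles ended the vehicle call (log2 fold change 0.11, SE 0.0341, adjusted p = 0.0800, and 0.15, SE 0.0504, adjusted p = 0.0933).

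SMAD2, the other receptor-activated SMAD, had negative fold changes that missed the threshold. It measured 8.66, 8.81 and 8.35 FPKM in wild type and 7.88, 7.48 and 7.72 FPKM in labelled PARP3-/- libraries with pyridostatin. The wild-type values were all above the labelled PARP3-/- values (log2 fold change -0.14, SE 0.0431, limma adjusted p = 0.0596). With vehicle the log2 fold change was -0.11 (SE 0.0431, limma adjusted p = 0.178), with 8.70, 7.99 and 8.77 FPKM against 7.71, 8.06 and 7.65 FPKM. Wild-type library 2 fell among the labelled PARP3-/- values. SMAD2 passed as lower with both treatments under the common median (adjusted p = 0.0310 and 0.0128), under common quantiles (0.0234 and 0.00860) and without wild-type vehicle library 2 (0.0294 and 0.0148). Under these scalings the called genes split into 2 higher and 1 lower with vehicle, and with pyridostatin into 4 higher and 1 lower (common median) or 5 higher and 1 lower (quantiles).

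The ratio of SMAD3 to SMAD2 within a library is not changed by scaling a library by a single factor. It was 6.61, 6.73 and 6.59 in wild type and 8.25, 7.78 and 8.01 in labelled PARP3-/- libraries with vehicle. With pyridostatin it was 6.89, 6.68 and 7.01 against 8.59, 9.49 and 9.40. The genotypes were apart with both treatments (6.64 ± 0.0731 against 8.01 ± 0.234, and 6.86 ± 0.164 against 9.16 ± 0.497; SD, n = 3). The ratio was formed after both genes had been examined and was not tested.

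SMAD4, the shared partner of the receptor-activated SMADs, had the lowest mean of the 9 genes in every group, between 4.49 and 5.04 FPKM. It passed in no comparison. Its values were 4.97, 4.17 and 5.05 FPKM against 4.55, 4.78 and 4.58 FPKM with vehicle (log2 fold change -0.02, SE 0.0813, limma adjusted p = 0.933). With pyridostatin they were 4.48, 5.08 and 3.90 FPKM against 4.97, 4.86 and 5.28 FPKM (log2 fold change 0.14, SE 0.0813, limma adjusted p = 0.330). The genotypes overlapped with both treatments. SMAD1 and SMAD5, which transduce BMP signals, passed in no comparison either, and SMAD9 had group means of at most 0.0186 FPKM.

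SMAD7, an inhibitory SMAD, was the only gene of the 9 called between genotypes with both treatments under all 20 alternatives. With vehicle it measured 6.40, 6.88 and 7.11 FPKM in wild type and 9.20, 9.47 and 8.67 FPKM in labelled PARP3-/- libraries. The groups were apart by more than the spread within either, with a mean 34.1% higher in labelled PARP3-/- (log2 fold change 0.38, SE 0.0495, limma adjusted p = 0.000736). With pyridostatin the values were 7.37, 7.83 and 7.25 FPKM against 9.08, 9.50 and 9.76 FPKM. Again no library overlapped (log2 fold change 0.30, SE 0.0495, limma adjusted p = 0.00279). Over these alternatives the adjusted p was at most 0.0252 with vehicle and 0.0166 with pyridostatin. SMAD7 stood above SMAD2 in both labelled PARP3-/- groups, with no overlap, and below it in both wild-type groups, also with no overlap. SMAD6, the inhibitory SMAD of BMP signals, did not pass between genotypes (log2 fold change -0.06 and 0.13, limma adjusted p = 0.715 and 0.328).

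CTGF had the largest differences among the 9 genes in the genotype comparisons and in both pyridostatin comparisons. With vehicle it measured 18.2, 21.2 and 23.1 FPKM in wild type and 41.3, 35.1 and 28.5 FPKM in labelled PARP3-/- libraries. The lowest labelled PARP3-/- library was above the highest wild-type one, although the labelled PARP3-/- libraries were widely spread (35.0 ± 6.39 against 20.8 ± 2.47 FPKM, SD, n = 3). The ratio of means was 1.68 (log2 fold change 0.71, SE 0.123, limma adjusted p = 0.00412), and the call was lost only in the fit restricted to the libraries compared (adjusted p = 0.0587) among 20 alternatives. With pyridostatin the values were 26.4, 29.4 and 31.1 FPKM against 52.3, 48.4 and 46.6 FPKM. Every labelled PARP3-/- library was well above the wild-type ones, with a ratio of means of 1.70 (log2 fold change 0.74, SE 0.123, limma adjusted p = 0.00291), and this held in all 20 alternatives.

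**Figure D2:**
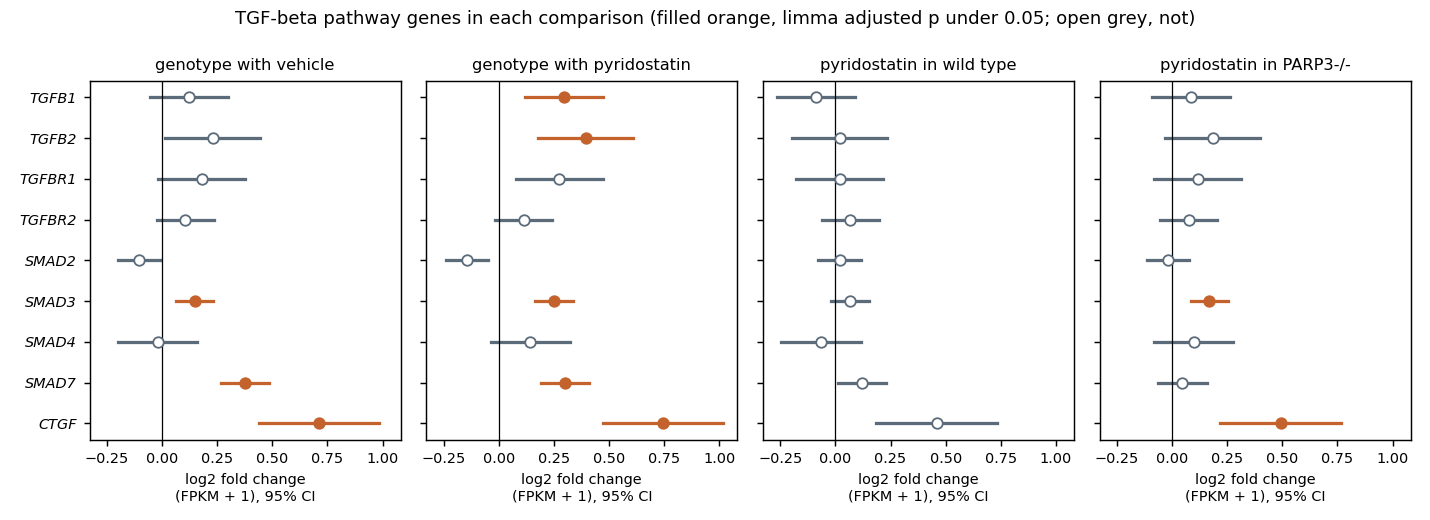
Log2 fold change of log2(FPKM + 1) with its 95% confidence interval (x axis) for the 9 genes (y axis) in 4 comparisons (panels), from limma; filled orange points passed an adjusted p of 0.05 and open grey points did not. Genotype panels give labelled PARP3-/- over wild type, where CTGF lies at 0.71 and 0.74 and SMAD2 on the negative side, and pyridostatin panels give pyridostatin over vehicle, where CTGF lies at 0.46 and 0.49.

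CTGF and SMAD3 were the genes called for pyridostatin itself, both in labelled PARP3-/- cells. There CTGF went from 41.3, 35.1 and 28.5 FPKM to 52.3, 48.4 and 46.6 FPKM. The groups were apart (log2 fold change 0.49, SE 0.123, limma adjusted p = 0.0451), and the call held in 6 of 20 alternatives (adjusted p 0.0240 to 0.129). In wild type CTGF went from 18.2, 21.2 and 23.1 FPKM to 26.4, 29.4 and 31.1 FPKM, also with no overlap, a log2 fold change of 0.46 of nearly the same size that missed the threshold (SE 0.123, limma adjusted p = 0.0691). It passed without labelled PARP3-/- vehicle library 1 or 3 (adjusted p = 0.0440 and 0.0379), which enter that comparison only through the shared estimate of the spread.

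SMAD3 went from 63.6, 62.7 and 61.3 FPKM to 67.7, 71.0 and 72.6 FPKM with pyridostatin in labelled PARP3-/- cells. The values were all higher with pyridostatin (log2 fold change 0.17, SE 0.0384, limma adjusted p = 0.0306), and the call held in 13 of 20 alternatives (adjusted p 0.00632 to 0.130). In wild type the SMAD3 log2 fold change was 0.07 (SE 0.0384, limma adjusted p = 0.370), with 57.5, 53.8 and 57.8 FPKM before and 59.7, 58.9 and 58.5 FPKM after. The G4 consensus was matched in the windows of SMAD3, TGFB1 and SMAD2, and the part of such matches in these values was not tested. SMAD7 shifted with pyridostatin by 0.12 in wild type and 0.05 in labelled PARP3-/- (log2, limma adjusted p = 0.201 and 0.672). For the remaining genes pyridostatin gave log2 fold changes between -0.09 and 0.18, none of which passed.

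Whether the response to pyridostatin differed between the genotypes was tested as an interaction. None of the 9 genes passed, and 0 had an unadjusted p under 0.05, where limma called 0% of all 11881 genes and 521 of them (4.39%) had an unadjusted p under 0.05. For CTGF the difference between responses was 0.03 on the log2 scale with a 95% interval of -0.35 to 0.42, and for SMAD3 it was 0.10 with an interval of -0.02 to 0.22. The interval for TGFB1 was -0.08 to 0.42 and that for TGFB2 -0.14 to 0.47. The ligand calls with pyridostatin and their absence with vehicle are therefore not shown to differ.

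In every group TGFB1, SMAD3, TGFBR2, CTGF and TGFB2 lay above SMAD2, SMAD7, TGFBR1 and SMAD4 in level, with no overlap between these sets. TGFB1, SMAD3 and TGFBR2 were highest in wild type with vehicle at 57.3, 56.4 and 46.6 FPKM, followed by CTGF at 20.8 and TGFB2 at 13.3 FPKM. SMAD2, SMAD7, TGFBR1 and SMAD4 came last, between 8.49 and 4.73 FPKM. The neighbours TGFB1 and SMAD3 overlapped in all groups, as did SMAD7 and TGFBR1 in wild type with vehicle, TGFB1 and TGFBR2 in wild type with pyridostatin and SMAD2 and TGFBR1 in both labelled PARP3-/- groups, while CTGF and TGFB2 did not overlap in any group. CTGF overlapped the range of TGFBR2 only in labelled PARP3-/- with pyridostatin, where the means were 49.1 and 52.9 FPKM. FPKM is scaled to transcript length, so these are orders of transcript level, not of protein.

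Among other genes of the pathway, transcriptional targets accounted for most of the calls between genotypes. Of 80 further genes in 5 lists, 67 were tested, and 16 were higher and 5 lower in labelled PARP3-/- with vehicle (31.3% called, against 9.41% of all genes), with 19 higher and 4 lower with pyridostatin (34.3% against 10.9%). Among 22 transcriptional targets, 19 were tested, and 10 were higher and 3 lower with vehicle (list median 0.28) and 10 higher and 2 lower with pyridostatin (0.28). In the main fit the 10 higher genes were the same with both treatments. With vehicle 9 were higher under a common median and 8 under common quantiles. With pyridostatin these counts were 9 and 10. The lists were written with earlier results of these data known, and their shares are a description.

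PTHLH, which encodes parathyroid hormone-related protein, went from 5.26 ± 0.376 to 14.7 ± 0.245 FPKM with vehicle and from 4.33 ± 0.392 to 12.6 ± 1.06 FPKM with pyridostatin (SD, n = 3). Its log2 fold changes of 1.33 and 1.35 were past both thresholds (limma adjusted p = 9.32e-07 and 7.90e-07). PMEPA1, a target that restrains the receptor-activated SMADs, rose from 92.4 ± 1.64 to 130.3 ± 5.91 FPKM with vehicle, with a log2 fold change of 0.49 and, with pyridostatin, of 0.57. TAGLN, an actin-binding protein of contractile cells, rose by 0.86 and 0.59, TGFBI, a matrix protein, by 0.28 and 0.30, and SPHK1, a lipid kinase, by 0.43 and 0.49 on the log2 scale, all with limma adjusted p under 0.003.

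The lower targets were the ID genes, inhibitors of basic helix-loop-helix factors that BMP signals induce and TGF-beta represses in epithelial cells. The ligand gene BMP4 was also lower with both treatments (log2 fold change -0.35 and -0.49, limma adjusted p = 0.0282 and 0.00428). Those BMP4 calls held in 15 and 20 of 20 alternatives, and the part of BMP4 in the ID values was not tested. ID1 and ID2 fell outside the rule for named genes and were picked after their values were seen. ID3 measured 159, 193 and 167 FPKM in wild type and 127, 145 and 139 FPKM in labelled PARP3-/- libraries with vehicle, and 212, 207 and 214 against 165, 170.2 and 171 FPKM with pyridostatin. The genotypes were apart with both treatments (log2 fold change -0.33 and -0.32, SE 0.0682, limma adjusted p = 0.0102 and 0.0120), and ID2 had log2 fold changes of -0.45 and -0.40 (limma adjusted p = 0.00378 and 0.00764). ID1 passed with vehicle (-0.33, limma adjusted p = 0.0175) and had a log2 fold change of -0.16 with pyridostatin (adjusted p = 0.229). CDKN2B, a classical target that lies in a locus A549 cells are known to have lost, was listed at 0 in all 12 libraries.

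**Figure D3:**
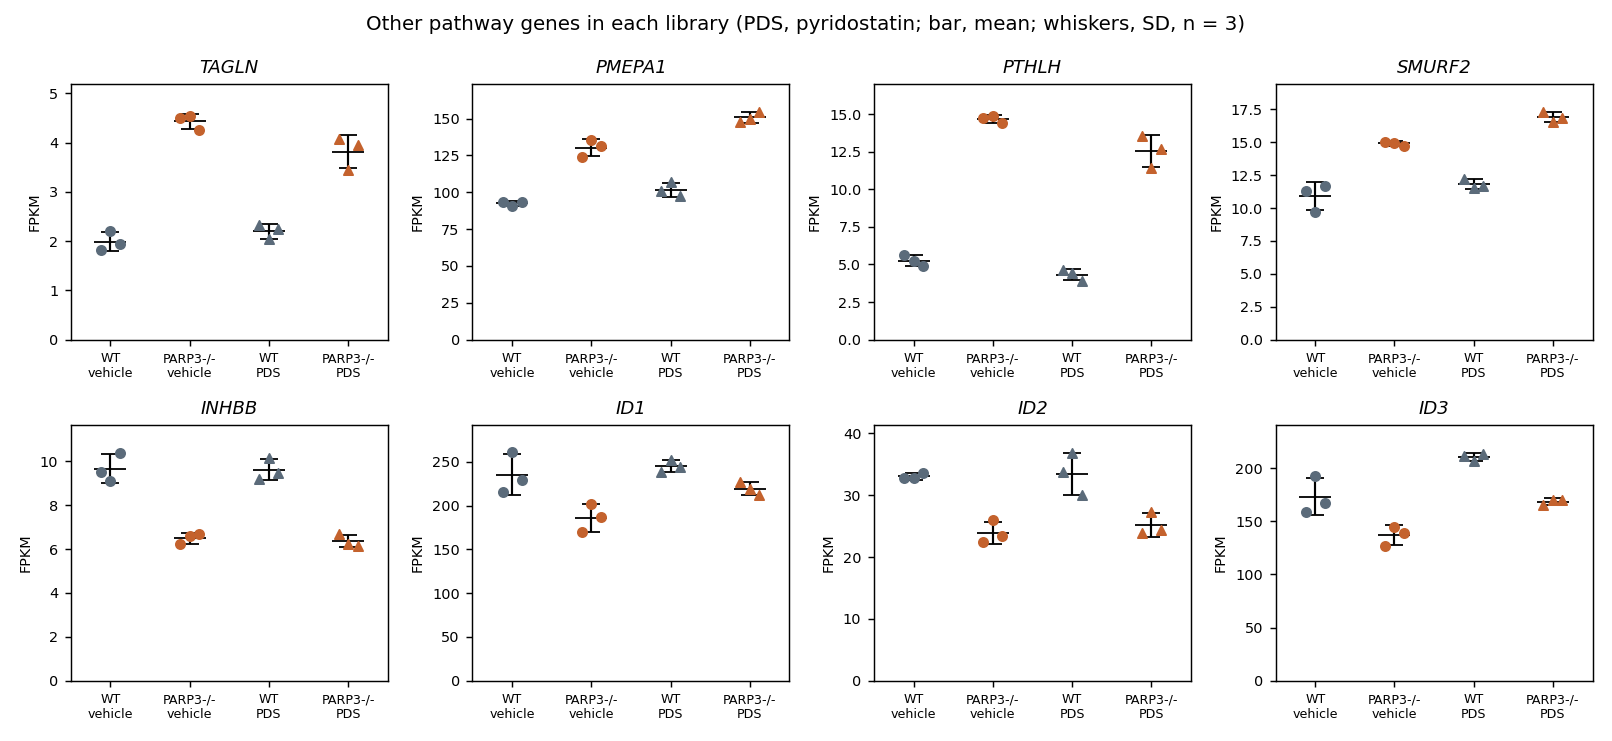
FPKM (y axis, from 0) of 8 further pathway genes in each library of the 4 groups (x axis; PDS, pyridostatin; grey, wild type; orange, labelled PARP3-/-; circles, vehicle; triangles, pyridostatin); bars are means and whiskers SD (n = 3), and ID1 and ID2 were added after their values were seen. TAGLN, PMEPA1, PTHLH and SMURF2 lie higher in every labelled PARP3-/- library, and INHBB, ID1, ID2 and ID3 lie lower in every one, than in any wild-type library of the same treatment.

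Genes listed under ligands and their processing moved in both directions. Of 19, 14 were tested, and 5 were higher and 2 lower in labelled PARP3-/- with vehicle and 7 higher and 2 lower with pyridostatin. Over all genes tested, 9.41% with vehicle and 10.9% with pyridostatin were called in either direction. LTBP2, a matrix protein of the latent TGF-beta binding protein family, went from 2.80 ± 0.1204 to 5.39 ± 0.0881 FPKM with vehicle and from 3.19 ± 0.104 to 5.36 ± 0.423 FPKM with pyridostatin (log2 fold change 0.75 and 0.60, limma adjusted p = 7.87e-06 and 3.70e-05). LTBP4, of the same family, rose by 0.24 and 0.33 and FST, which sequesters activins, by 0.50 and 0.45 on the log2 scale (limma adjusted p at most 0.00613). INHBB, an activin subunit, fell from 9.66 ± 0.649 to 6.48 ± 0.241 FPKM with vehicle and from 9.61 ± 0.491 to 6.36 ± 0.280 FPKM with pyridostatin (log2 fold change -0.51 and -0.53, limma adjusted p = 0.000156 and 0.000122).

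Receptors and SMAD regulators had few calls between genotypes, as did all genes tested (9.41% with vehicle and 10.9% with pyridostatin). Lists of this size cannot show a lower share. Of 10 further receptors and coreceptors, 6 were tested and 0 passed by limma in any of the 4 comparisons. An unadjusted p under 0.05 was met by 1 and 0 of 6 between genotypes with vehicle and pyridostatin. For pyridostatin in wild type and labelled PARP3-/- it was met by 3 and 1 of 6. Over all genes it was met by 21.58%, 24.03%, 20.28% and 19.6% in the same order. Of 20 SMADs and SMAD regulators, 19 were tested. Between genotypes 1 passed as higher with vehicle (5.26%) and 2 with pyridostatin (10.5%). Each count was joined by 1 lower gene under common quantiles. SMURF2, a ubiquitin ligase that SMAD7 brings to the type I receptor, was in both, at 11.3, 9.67 and 11.7 FPKM in wild type and 15.1, 14.9 and 14.7 FPKM in labelled PARP3-/- libraries with vehicle. The groups did not overlap (log2 fold change 0.42 and, with pyridostatin, 0.48, SE 0.0581, limma adjusted p = 0.000940 and 0.000336). Of 9 YAP/TAZ targets other than CTGF, all were tested and 0 passed between genotypes by limma. A list of 9 genes cannot show a share below the 9.41% and 10.9% of all genes called. At an unadjusted p under 0.05, 2 and 3 of the 9 were higher with vehicle and pyridostatin. Over all genes, 21.58% and 24.03% had such a p in either direction. This list holds the TEAD1 and TEAD4 factors and not CYR61, a YAP/TAZ target that was counted among the transcriptional targets and was called higher with both treatments.

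**Figure D4:**
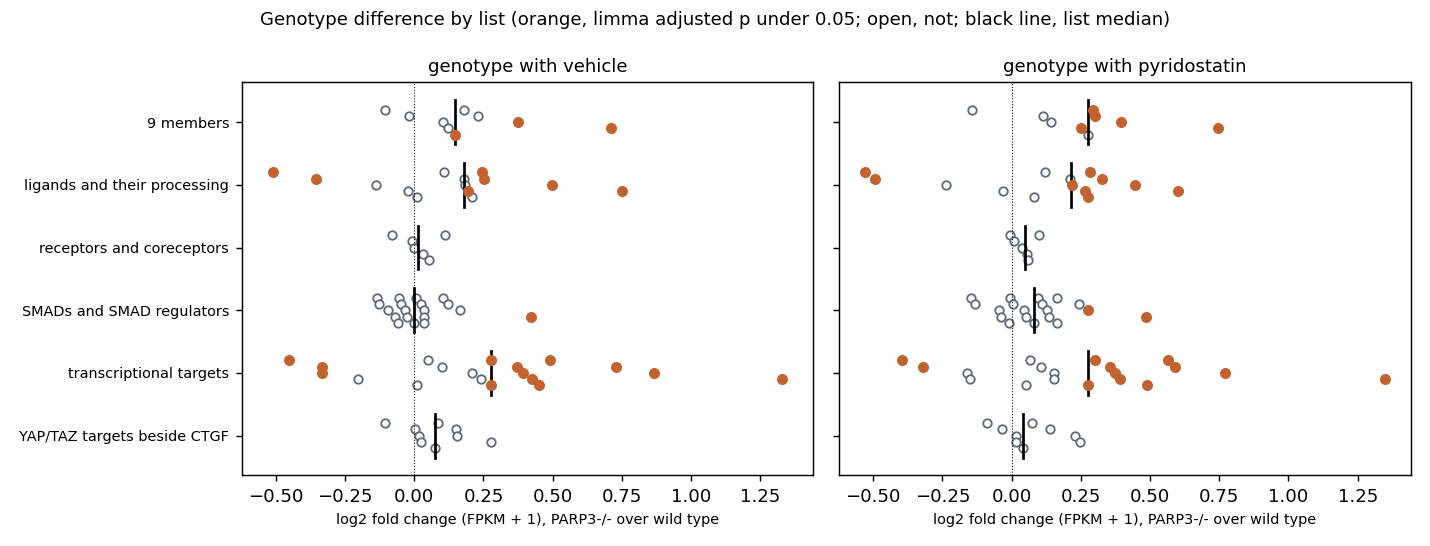
Log2 fold change of log2(FPKM + 1) between labelled PARP3-/- and wild type (x axis) for each tested gene of the 9 members and 5 further pathway lists (y axis), with vehicle (left) and pyridostatin (right); orange points passed a limma adjusted p of 0.05, open points did not, and black lines are list medians. The transcriptional targets have medians of 0.28 in both panels. The receptors and the YAP/TAZ list, which leaves out CYR61 (drawn as orange among the transcriptional targets), have no orange point. Over all genes tested, 9.41% (left) and 10.9% (right) passed.

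With pyridostatin, other pathway genes passed in small numbers and only upwards, 6 of 67 in wild type (8.96%, against 4.17% of all genes) and 10 of 67 in labelled PARP3-/- (14.9%, against 5.56%). With common quantiles the wild-type split was 5 higher and 1 lower. GDF15, a stress-induced member of the ligand superfamily, went from 96.8, 119.5 and 104 FPKM to 181, 193 and 182 FPKM in wild type and from 91.9, 102 and 96.0 FPKM to 153, 163 and 154 FPKM in labelled PARP3-/-. Every treated value was above every vehicle value (log2 fold change 0.79 and 0.69, SE 0.0705, limma adjusted p = 0.000210 and 0.000425). SMURF1, a ubiquitin ligase related to SMURF2, rose by 0.36 in wild type and 0.30 in labelled PARP3-/- on the log2 scale (limma adjusted p = 0.00287 and 0.00632), and ID3 rose by 0.29 and 0.30 (0.0436 and 0.0306). NEDD4L, a further ubiquitin ligase of SMADs, rose by 0.27 and 0.26 (0.0334 and 0.0343). In wild type BMP4, a BMP ligand, and AMOTL2, a YAP/TAZ target, also passed (log2 fold change 0.43 and 0.21, limma adjusted p = 0.0236 and 0.0447). Of these, NEDD4L held in 9 of 19 alternatives in either genotype, and in wild type ID3 held in 6 of 20 and AMOTL2 in 3 of 20. In labelled PARP3-/- cells PPM1A, a phosphatase of SMADs, SKI, a SMAD corepressor, LTBP3 and SMAD6 passed at log2 fold changes of 0.48, 0.33, 0.25 and 0.31 (limma adjusted p between 0.00575 and 0.0349), with PMEPA1 at 0.21. The SMAD6 call held in 11 of 20 alternatives, with an adjusted p of up to 0.12.

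Across the 12 libraries, the tested genes whose levels followed CTGF most closely were CYR61, SGK1, EPHA2, DUSP1 and DUSP6, with Pearson r of 0.972, 0.970, 0.960, 0.953 and 0.953 on log2(FPKM + 1). Among those closest to SMAD7 were BDNF, OTUB2, FHL2 and DUSP7, with r between 0.962 and 0.967. CTGF and SMAD7 were taken because their group means spanned the widest ranges among the 9 genes, 1.203 and 0.42 on the log2 scale. The 12 libraries fall in 4 groups whose differences these values contain, so they describe a shared pattern over groups. CYR61, a matricellular relative of CTGF, had genotype log2 fold changes of 0.28 with both treatments (limma adjusted p = 0.0454 and 0.0433), which held in 3 and 10 of 20 alternatives.

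Epithelial markers differed between genotypes as well. Of 6, KRT19 was higher and EPCAM and CDH1 were lower in labelled PARP3-/- libraries with both treatments. Of all genes tested, 9.41% with vehicle and 10.9% with pyridostatin were called in either direction. A common median left the split of the markers at 1 higher and 2 lower with both treatments. Under common quantiles it was 1 higher and 3 lower with vehicle, and 2 higher and 3 lower with pyridostatin. KRT19 measured 90.5 ± 10.8 FPKM in wild type and 163 ± 6.79 FPKM in labelled PARP3-/- with vehicle (SD, n = 3). Its log2 fold changes were 0.847 with vehicle and 0.855 with pyridostatin (limma adjusted p = 2.25e-05 and 2.08e-05). CDH1, which encodes E-cadherin, measured 14.8, 12.6 and 14.8 FPKM in wild type and 10.2, 9.85 and 10.6 FPKM in labelled PARP3-/- with vehicle (log2 fold change -0.42, SE 0.0601, limma adjusted p = 0.00117). The summed level of the 6 markers, from 6910 to 8630 FPKM over the 12 libraries, overlapped between genotypes with vehicle and not with pyridostatin (7580 to 7720 against 6910 to 7500 FPKM). The part of these markers in the differences of the 9 genes was not tested.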

How the data were processed

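RNA was sequenced as single-end 75-base reads from stranded mRNA libraries of 12 A549 cultures. The authors deposited FPKM values as one matrix per gene symbol, with 1 column for each library. The submitters' processing notes name bcl2fastq 2.16, STAR 2.5, Cufflinks and the builds hg19 and mm9, without roles. The study's methods tested a count model with the same 2 thresholds as here (adjusted p 0.05, log2 fold change of 1 in size); counts were not used. Read depth is unknown, and steps in the lowest FPKM values put the deepest library at about 1.42 times the shallowest.

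Groups followed the labels. The 11881 genes averaging 1 FPKM or more (6033 names were at 0 throughout) were fitted as log2(FPKM + 1), which understates changes of low genes, in limma 3.58.1 (R 4.3.3) with 4 group means, trended eBayes, two-sided tests and Benjamini-Hochberg adjustment. The script was tested on simulated data. Alternatives were 8 other settings and leaving out each of 12 libraries. Named were the 9 genes, PARP3, 6 near relatives, up to 10 called pathway genes per comparison by smallest p, and the 5 genes most like CTGF and SMAD7. Some genes that the rule names are not reported here. Members and lists were chosen with earlier results of these data known.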

Additional observations from a re-analysis of the deposited data

How the results depend on the processing

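No direction of a called gene reversed under any of the 20 alternatives run. With vehicle, 3 genes were called between genotypes, 1 (SMAD7) when only the libraries compared were fitted, and 2 to 4 when 1 library was left out. With pyridostatin, 5 were called, and leaving out 1 library gave 3 to 8: 8 without wild-type vehicle library 2, which added TGFBR1, TGFBR2 and SMAD2, and 3 without wild-type pyridostatin library 1 or 3 or labelled PARP3-/- pyridostatin library 2 or 3. For pyridostatin in wild type, 0 genes became 0 to 1 (CTGF). For pyridostatin in labelled PARP3-/-, 2 became 1 with no filter on the mean, with a common median, with only the libraries compared and with eBayes without a trend (SMAD3 in each), and 0 to 2 when 1 library was left out, with 0 without labelled PARP3-/- vehicle library 2 or 3, wild-type pyridostatin library 1, or labelled PARP3-/- pyridostatin library 2 or 3. The cause of these changes was not tested. With the replicate number as a block the counts were 2, 4, 0 and 0. The block ended the calls of SMAD3 with vehicle and of TGFB2 between genotypes with pyridostatin. It also ended those of SMAD3 and CTGF for pyridostatin in labelled PARP3-/-. Deviations of libraries that share a number correlated at -0.12 to 0.216 across genes. In the 4 comparisons 6, 2, 2 and 5 of 6 libraries correlated best with their own number. Whether the numbers pair libraries is therefore not settled, and the main fit did not pair them. The block's counts do not bear on effect size. Over all genes, leaving out 1 library gave 746 to 1644 calls with vehicle, 806 to 2298 with pyridostatin, 178 to 706 for pyridostatin in wild type and 254 to 1559 for it in labelled PARP3-/-, each highest without wild-type vehicle library 2 and lowest without labelled PARP3-/- vehicle library 2, wild-type pyridostatin library 3, wild-type pyridostatin library 1 and labelled PARP3-/- pyridostatin library 3, so the shares of all genes called move with them. With only the libraries compared, 532 and 65 genes were called with vehicle and for pyridostatin in wild type. A common median moved the share of higher calls with vehicle from 68% to 51.7%, while the median log2 fold change over all genes moved by less than 0.1. With 3 libraries a group and no known depth, small differences such as those of TGFBR2 and SMAD4 are not shown to be absent.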
